A study of Erysimum cheiri and Matthiola incana and Raphanus sativus with 44 samples.

Results

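HSFA2 and 9 heat shock protein genes were followed in petals of 10 Brassicaceae species. HSFA2 is a heat-inducible transcription factor of Arabidopsis that prolongs the heat response once its own gene has been switched on. Proteins made in this response include HSP101, a hexameric disaggregase, HSP70 and HSP90.1, which fold proteins with the use of ATP, and small heat shock proteins, which hold unfolded proteins until the larger chaperones take over. In Arabidopsis these transcripts are low in unstressed vegetative tissue and accumulate within a short time of warming, while some of them also accumulate in pollen and seeds.

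The 10 genes were chosen by their Arabidopsis locus identifiers. They are HSFA2 (AT2G26150), HSP101 (AT1G74310), HSP70 (AT3G12580), HSP90.1 (AT5G52640), the class I cytosolic small heat shock proteins HSP17.4 (AT3G46230), HSP17.6C (AT1G53540) and HSP18.2 (AT5G59720), the class II protein HSP17.6II (AT5G12020), the plastid protein HSP21 (AT4G27670) and the endomembrane protein HSP22 (AT4G10250). All 10 were found in every species' table, among 34133 loci each (34131 in the Brassica table).

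Petals were taken from half-open flowers of greenhouse plants, and directional poly(A) RNA-seq libraries were made from 22 forms with 2 libraries each, described as biological replicates. The labels name no heat treatment. They do not say whether the 2 libraries of a form came from separate plants, so p-values measure only the spread between these libraries. Values are FPKM (fragments, scaled by transcript length and by library size) with Arabidopsis as the common reference, so a low value in another species can also come with sequence divergence, and levels are compared by test only within a species.

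The forms are named by the codes of the sample titles, with the colour label in brackets. Erysimum cheiri had forms P (yellow), O (pink), Y (yellow) and B (orange). Matthiola incana had LP (modena), DP (lavender), RB (pink) and W (white). Raphanus sativus had DP (violet), LP (white-violet) and W (violet). Iberis amara had PI (violet) and P (pink), Lobularia maritima had P (violet) and W (white), Malcolmia maritima had P (white-violet) and LP (violet), and Orychophragmus violaceus had P (violet) and W (white-violet). Single forms came from Aubrieta x cultorum (PI, pink), Brassica oleracea (Y, yellow) and Eruca sativa (Y, brownness). Codes and colours did not run in parallel: W is white in Lobularia and Matthiola but carries the same colour as DP in Raphanus, and P and Y of Erysimum share a colour. The labels do not explain the codes, so a contrast here is between codes, and which petal colours it compares is uncertain.

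Some labels and columns limit these groups. Erysimum Y carries the organism label of Eruca and Eruca Y that of Erysimum, and the titles were followed. The Erysimum columns headed PI1 and PI2 were taken as form P, by elimination. The 2 Aubrieta columns were identical and counted as 1 library, which leaves 43 libraries. Both columns of Matthiola W have 1 heading and are told apart here as Wa and Wb. Library PI2 of Erysimum stood apart from its species: over 13804 loci its Spearman correlation was 0.715 and 0.729 with Orychophragmus W1 and W2, against 0.468 to 0.483 with the other 7 Erysimum libraries, and it was the only 1 of the 42 libraries with a partner from their own species that was closest to another species. The Erysimum contrasts and the comparison of libraries are also given without PI2 or without form P. The petal identity genes AP3 and PI were above 0 in all 43 libraries, AP3 from 176 to 3979 FPKM and PI from 50.5 to 12784 FPKM. Of 10 genes used in every cell at most 2 were listed at 0 in a library, and 16 libraries listed at least 1 at 0, so a 0 is given only as listed at 0.

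Most libraries held little of these transcripts, and a few held very much. In these bulk petal samples, fewer cells of a type and less RNA per cell cannot be told apart. The summed FPKM of the 10 genes exceeded 200 in 8 of the 43 libraries, and in the other 35 it was at most 114. It was 15547 and 15814 FPKM in Erysimum B1 and B2, 11267 in O2, 4656 in Y2, 4244 in PI2 and 2951 in Lobularia W2. Eruca Y1 followed with 454 and Erysimum PI1 with 325. In Erysimum B1 and B2 the 10 genes made up 1.66% and 1.76% of all FPKM of the library, in O2 1.17%, in Lobularia W2 1.42%, in Y2 0.647% and in PI2 0.518%. The sum in Erysimum O1 and Y1 was 99.1 and 76.2 FPKM, or 0.0136% and 0.0101% of the library.

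**Figure D1:**
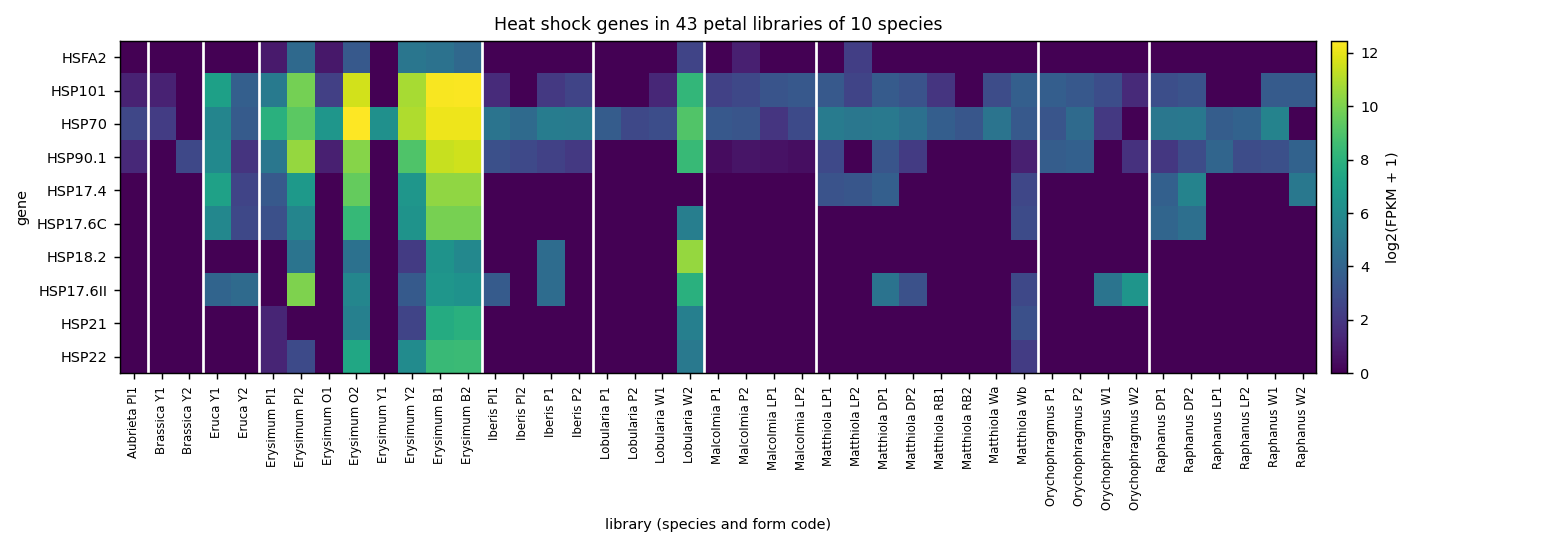
Each column is 1 of the 43 libraries, grouped by species (white lines), each row 1 of the 10 genes, and colour gives log2(FPKM + 1). High values across most rows appear in Erysimum PI2, O2, Y2, B1 and B2 and in Lobularia W2, whose sums run from 2951 to 15814 FPKM, while most other libraries are dark apart from HSP101, HSP70 and HSP90.1.

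Across the series the ATP-dependent chaperones were seen most often. HSP70 was above 0 in 40 of the 43 libraries, HSP101 in 35 and HSP90.1 in 33, each of them in all 10 species. The small heat shock proteins were seen in fewer libraries: HSP17.6II and HSP17.4 in 15 each, HSP17.6C in 12, HSP22 in 8 and HSP18.2 and HSP21 in 7 each. HSFA2 was above 0 in 10 libraries of 4 species and reached 28.7 FPKM at most, in Erysimum Y2. HSP18.2, HSP21 and HSP22 were each above 0 in 3 species.

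In Erysimum the regulator HSFA2 had 0.890 and 18.24 FPKM in P, 0.745 and 10.2 FPKM in O, 0 and 28.7 FPKM in Y and 24.9 and 17.43 FPKM in B, where the first value of each pair is from library 1 (PI1 in P) and the second from library 2 (PI2 in P). Low FPKM values of Erysimum fall on steps of whole reads, which gives 1 and 5 reads in P, 1 and 11 in O, 0 and 38 in Y and 23 and 20 in B for HSFA2. Both libraries of B and 1 library of each of the other 3 forms were thus high, and only O did not overlap B.

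HSP101, which pulls single proteins out of aggregates, had 33.2 and 919.8 FPKM in P, 4.19 and 3107 in O, 0 and 1808 in Y and 5243 and 5320 in B. HSP70, the heat-inducible cytosolic chaperone, had 241 and 635 FPKM in P, 93.0 and 5629 in O, 76.2 and 2036 in Y and 4576 and 4456 in B. HSP90.1, the heat-inducible cytosolic HSP90, had 29.8 and 1428 FPKM in P, 1.17 and 1188 in O, 0 and 526 in Y and 2688 and 3015 in B. Only the HSP70 value of O2 lay above the B libraries, and all other P, O and Y values of these 3 genes lay below them. By rank in the library, HSP101 was the locus with the 15th and 14th highest FPKM in B1 and B2, the 45th in O2, the 41st in Y2 and the 114th in PI2, while HSP70 was 14th in O2 and 32nd in Y2.

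The class I small heat shock proteins followed the same libraries. HSP17.4 had 10.2 and 101.3 FPKM in P, 0 and 720 in O, 0 and 91.0 in Y and 1332 and 1327 in B. HSP17.6C had 7.16 and 49.6 FPKM in P, 0 and 322 in O, 0 and 84.3 in Y and 959 and 942 in B. HSP18.2 was lower throughout, at 0 and 26.53 FPKM in P, 0 and 24.4 in O, 0 and 3.52 in Y and 83.4 and 54.8 in B. For each of these 3 genes both B libraries exceeded all 6 libraries of P, O and Y.

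HSP17.6II broke this order through PI2. It had 0 and 1059 FPKM in P, 0 and 50.9 in O, 0 and 10.54 in Y and 91.1 and 80.0 in B. PI2 thus lay far above both B libraries, the reverse of the order in the other small heat shock proteins. In Orychophragmus W1 and W2, the libraries closest to PI2 over all loci, HSP17.6II had 26.8 and 88.1 FPKM and was the most abundant of the 10 genes. The larger chaperones were far lower there than in PI2. HSP101 had 6.77 and 1.84 FPKM in W1 and W2 against 920 in PI2. HSP90.1 had 0 and 2.40 against 1428, and HSP70 had 3.22 and 0 against 635. All remaining genes were listed at 0 in W1 and W2. In Erysimum the organelle proteins went the other way from HSP17.6II. HSP21 had 1.44 and 0 FPKM in P, 0 and 42.1 in O, 0 and 4.83 in Y and 204 and 238 in B. HSP22 had 1.42 and 5.85 FPKM in P, 0 and 173 in O, 0 and 64.3 in Y and 346 and 363 in B. HSP21 was the only 1 of the 10 that was lower in PI2 than in PI1.

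**Figure D2:**
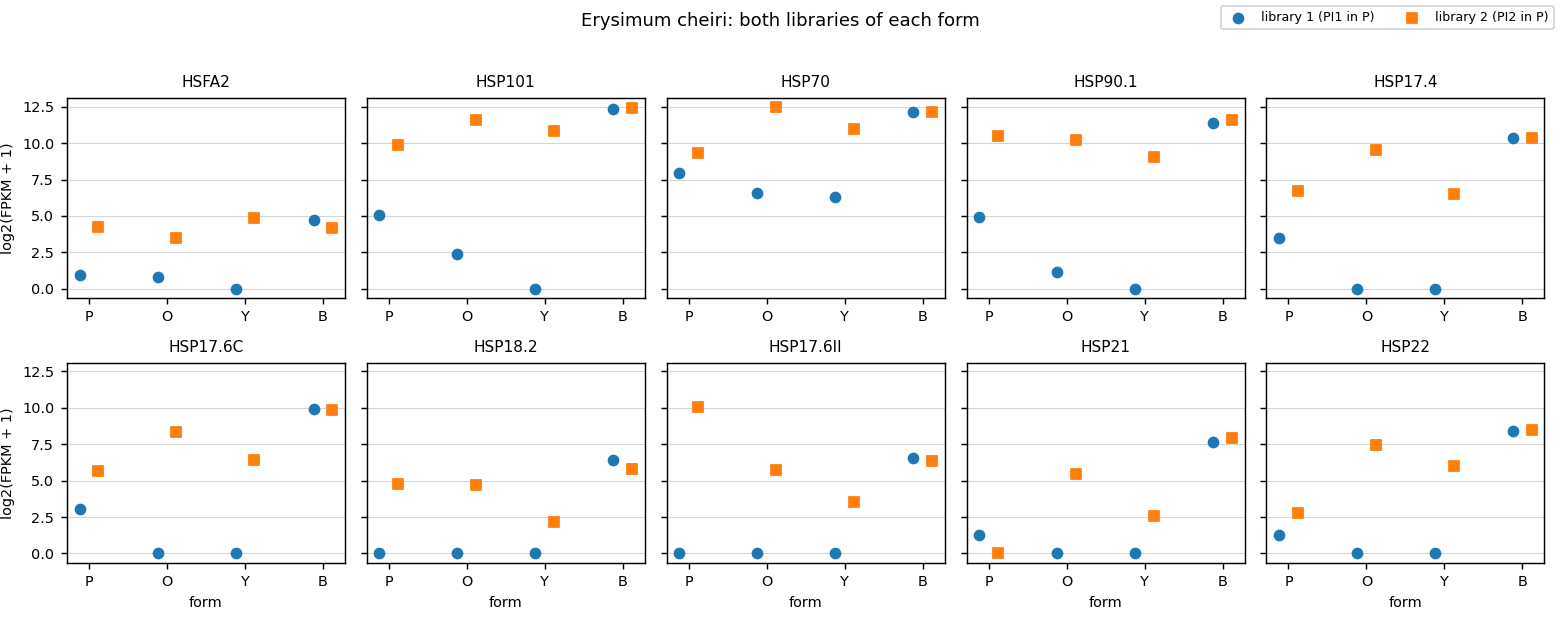
Each panel is 1 gene in Erysimum cheiri, with form on the horizontal axis and log2(FPKM + 1) on the vertical axis; circles are library 1 and squares library 2 of a form. In O and Y the squares lie far above the circles in all 10 panels, while in B both symbols lie together, for HSP101 at 5243 and 5320 FPKM.

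The make-up of the summed FPKM differed between the high libraries. HSP101 and HSP70 together led in Erysimum B, O2 and Y2: HSP101 was the largest share in B1 and B2 (33.7% and 33.6%), and HSP70 in O2 and Y2 (50.0% and 43.7%). In PI2 HSP90.1 was the largest share (33.7%). In Lobularia W2 it was HSP18.2 (48.3%), and in Eruca Y1 it was HSP17.4 (30.8%). The 6 small heat shock proteins together made up 19.4% and 19.0% of the sum in B1 and B2, 11.8% in O2, 5.55% in Y2, 29.3% in PI2 and 60.1% in Lobularia W2. In O1 and Y1 the sum was almost all HSP70, at 93.8% and 100%.

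**Figure D3:**
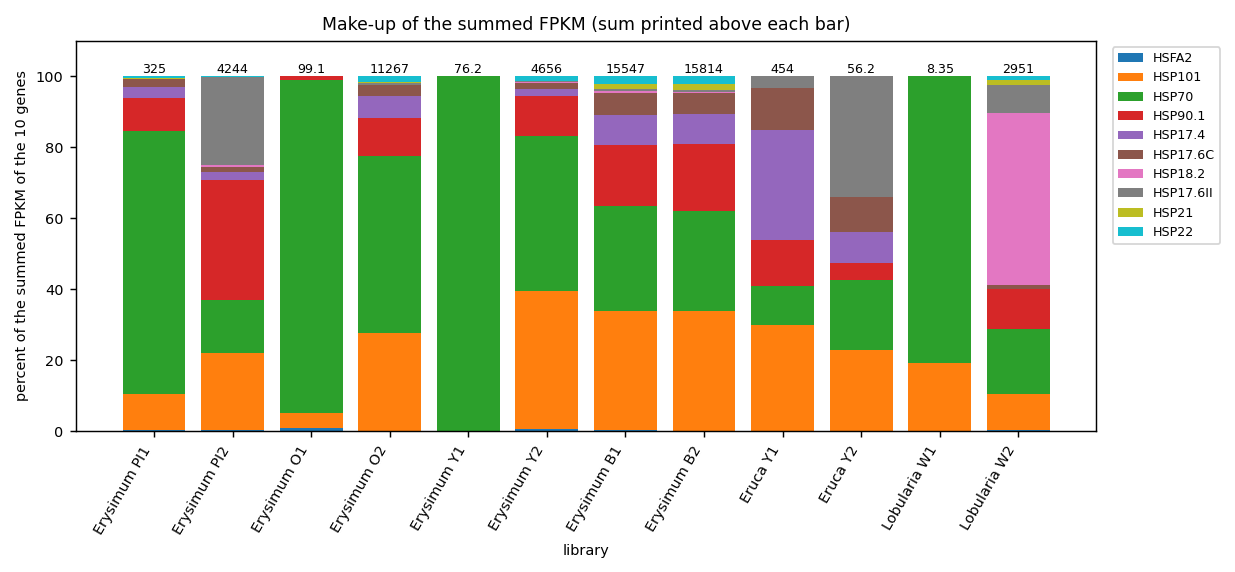
Stacked bars give the percent of the summed FPKM of the 10 genes that each gene holds in 12 libraries of Erysimum, Eruca and Lobularia, with the sum in FPKM above each bar. HSP18.2 (pink) fills 48.3% of the bar of Lobularia W2 and a small part of the Erysimum bars, and HSP70 (green) fills 93.8% and 100% of the bars with low sums in O1 and Y1.

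The form contrasts in Erysimum gave no call in the 10 genes, although most values lay far apart. Differences are given on the log2(FPKM + 1) scale with limma, fitted to every locus whose mean reached 1 FPKM in some form of the species, and a locus was called at a Benjamini-Hochberg adjusted p under 0.05 over all loci tested. Of 10 genes 0 were called in any of the 6 contrasts, where 1 to 4 of 14788 loci were called (0.00676% for P minus B, 0.0135% for O minus B and P minus O, 0.0203% for Y minus B and O minus Y, 0.027% for P minus Y). In P minus B 8 of 10 genes did not overlap (38.2% of all loci), with a median difference of -4.33 and a lowest adjusted p of 0.487. In O minus B 9 of 10 did not overlap (36.1% of all loci), with a median of -4.91 and adjusted p of 1 for all 10. In Y minus B 9 of 10 did not overlap (46.3% of all loci), with a median of -5.99 and a lowest adjusted p of 0.641, for HSP21 (-6.52 ± 1.69, SE). The median difference of all loci was 0.00 in these 3 contrasts. At an unadjusted p under 0.05 there were 2 of the 10 genes in P minus B (1494 of all loci), 1 in O minus B (404), 3 in Y minus B (789) and 0 in the other 3 contrasts. The 3 contrasts share the 2 B libraries. Without PI2, P minus B also gave 0 calls, with 4 of 13981 loci called, and HSP101 then differed by -7.27 and HSP17.6II by -6.43, against -4.90 and -1.41 with PI2. The median of the 10 genes in P minus B was -6.52 without PI2, and the lowest adjusted p over the 6 contrasts without it was 0.266 (Y minus B). In P minus O, P minus Y and O minus Y the libraries overlapped for all 10 genes, with median differences of 0.25, 1.22 and 1.12, while 27.9%, 31.5% and 29.7% of all loci did not overlap. Without PI2 the medians of P minus O and P minus Y had the other sign, at -1.51 and -0.51.

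The spread within forms was therefore described next. For each of the 21 forms with 2 different columns, the 2 libraries were compared for the genes with a form mean of at least 1 FPKM, and a gene counted as apart at a 4-fold difference of FPKM + 1. This left 106 pairs of gene and form, of which 57 were apart. Of these 57 pairs 46 fell in 6 forms: Erysimum O (10 of 10 genes, against 12.7% of all loci of the form), Erysimum Y (10 of 10, against 9.15%), Erysimum P (7 of 9, against 48.2%), Lobularia W (9 of 9, against 47.9%), Eruca Y (5 of 6, against 46.3%) and Matthiola W (5 of 7, against 29.3%). In Erysimum B 0 of 10 genes were apart, against 4.49% of all loci. Another 7 forms had 1 or 2 such genes: Brassica Y (2 of 2, against 38.7%), Iberis P (2 of 5, against 46.6%), Iberis PI (1 of 3, against 35.6%), Matthiola DP (1 of 5, against 28.2%), Matthiola LP (2 of 5, against 27.9%), Orychophragmus W (1 of 4, against 30.1%) and Raphanus W (2 of 4, against 53.2%). Besides Erysimum B, 0 genes were apart in Lobularia P (of 1, against 46.3%), Malcolmia LP (of 2, against 5.37%), Malcolmia P (of 2, against 2.14%), Matthiola RB (of 2, against 40.4%), Orychophragmus P (of 3, against 36.8%), Raphanus DP (of 5, against 34.1%) and Raphanus LP (of 2, against 49.4%). Where a read is worth several FPKM, 0 reads against 1 read can count as apart. That held for HSP17.4 in Raphanus W and Matthiola DP and for HSP70 in Orychophragmus W. Over all forms the share of loci that lay 4-fold apart ran from 2.14% to 53.2%. Without Erysimum P, 50 of 97 pairs were apart.

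In the 6 forms with most genes apart, those genes lay apart in 1 direction. In Erysimum O all 10 genes were higher in O2 (7.56% of all loci), with a median O1 minus O2 of -6.67 against -0.04 for all loci. In Erysimum Y all 10 were higher in Y2 (4.76% of all loci), with a median Y1 minus Y2 of -5.46 against 0.05. In Erysimum P all 7 were higher in PI2 (22.7% of all loci), in Lobularia W all 9 in W2 (26.7%), in Eruca Y all 5 in Y1 (14.1%) and in Matthiola W all 5 in Wb (21.8%). Brassica Y, Matthiola LP and Raphanus W each had 1 gene in either direction. The numbers 1 and 2 name libraries and mark no batch that the labels describe. Over the whole profile, O2 had Spearman correlations of 0.883 and 0.880 with B2 and B1 and 0.829 with O1 of its own form, and O1 of 0.891 with PI1 (12671 loci). Without the heat-related loci the O1 and O2 correlation was 0.835 and that of O2 and B2 0.882 (12611 loci).

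**Figure D4:**
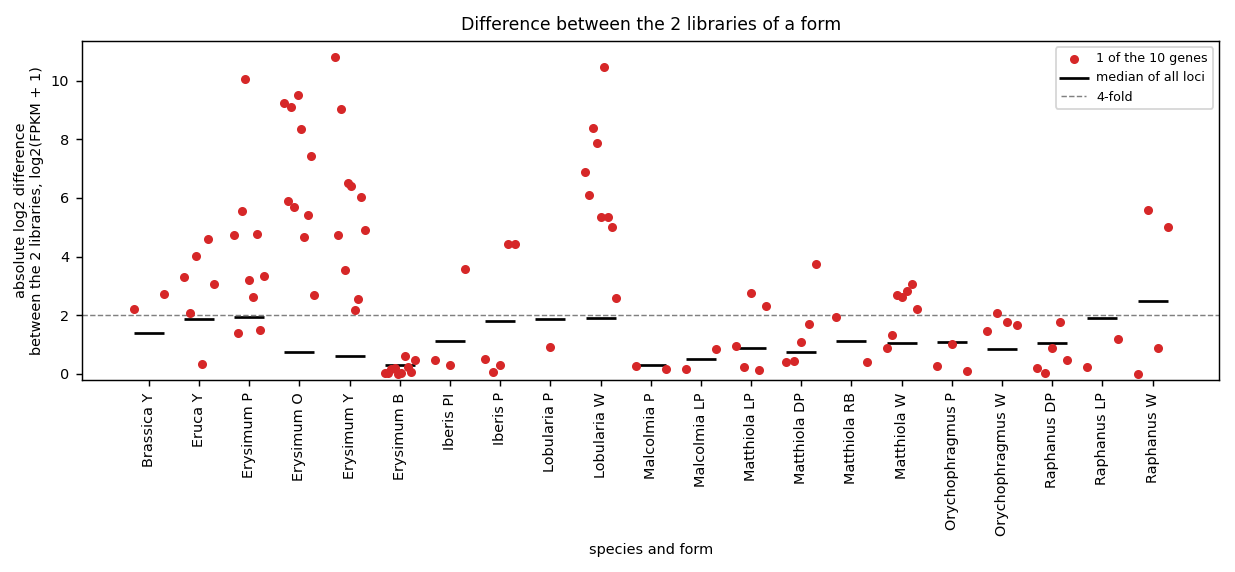
For each form with 2 different columns, red points give the absolute log2 difference between the 2 libraries for each of the 10 genes with a form mean of at least 1 FPKM, the black bar gives the median over all loci, and the dashed line marks 4-fold. The points of Erysimum O, Erysimum Y and Lobularia W lie above the line, those of Erysimum B lie near 0, and the black bars stay lower in Erysimum O and Y than in Erysimum P and Lobularia W.

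In Lobularia form W the difference between libraries was of the same size as in Erysimum. HSP18.2 had 0 FPKM in W1 and 1427 in W2, where it was the 15th highest locus. HSP70 had 6.76 and 534 FPKM in W1 and W2, which corresponds to 3 and 188 reads. HSP101 had 1.59 and 306 FPKM, while HSP90.1 had 0 and 334. The other small heat shock proteins were all listed at 0 in W1: HSP17.6II had 235 FPKM in W2, HSP21 40.0, HSP17.6C 39.6 and HSP22 31.5. HSFA2 had 4.95 FPKM in W2, and HSP17.4 was listed at 0 in both. Form P listed 9 of the 10 genes at 0 in both libraries, and its HSP70 had 11.5 and 5.55 FPKM in P1 and P2, or 4 and 2 reads, which overlaps W.

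For P minus W, limma called 0 of the 9 genes tested and 0 of 8801 loci (0%), with 0 of the 9 and 374 loci at an unadjusted p under 0.05. The size of the difference depends on the W library used. Without W1, the 8 tested genes listed at 0 in both P libraries were lower in P, from HSFA2 (-2.57) to HSP18.2 (-10.48). Without W2, HSP101 differed by -1.37. In W1 it was listed at 1.59 FPKM, less than 1 read was worth at a typical locus there. In these fits the lone W library is assumed to vary as P does. For genes listed at 0 in both P libraries no spread is left, so these fits cannot decide a call. The pollen marker VGD1 had 0 and 17.5 FPKM and the LAT52-like gene 0 and 8.49 in W1 and W2, with the other 2 pollen markers at 0 in both. The plastid genome held 8.67% of FPKM in W1 and 1.90% in W2, and 1.77% in P1 and 47.6% in P2. Their part in the difference was not tested.

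In Eruca Y the contrast between libraries was smaller and touched 5 genes. HSP101 had 136 and 12.9 FPKM in Y1 and Y2, HSP17.4 140 and 4.83, HSP90.1 59.1 and 2.70, HSP17.6C 53.9 and 5.61 and HSP70 50.1 and 11.0. HSP17.6II was within 4-fold, at 15.0015 and 19.1156 FPKM, and the other 4 genes were listed at 0 in both. Eruca had 2 columns, from which no reads were recovered, so its depth is unknown. In Y2 3 of 4 pollen markers were at least 4-fold higher than in Y1, the opposite direction to the heat shock genes, with VGD1 at 22.5 and 21.0 FPKM. These 3 were listed at 0 in Y1 and had 3.05 to 8.55 FPKM in Y2. Of all loci 32.2% were at least 4-fold higher in Y2.

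The 5 genes apart in Matthiola W stood near the detection limit. HSP17.6II, HSP17.4, HSP17.6C, HSP21 and HSP22 were listed at 0 in Wa and had 3.596 to 7.302 FPKM in Wb. For a typical locus, 1 read came to 6.23 FPKM in Wa and to 1.77 FPKM in Wb, so a level as in Wb was not detectable at the depth of Wa, and HSP17.4 in Wb corresponds to 1 read.

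The other genes of the heat response were read from 4 lists, of 11 other small heat shock protein genes, 20 other HSP70, HSP90 and ClpB genes, 20 other heat shock factors (19 analysed here) and 13 heat-induced genes and cochaperones. These lists were chosen with results of these data known, and their counts are a description. In Erysimum O 28 of 50 such genes with a form mean of at least 1 FPKM were at least 4-fold higher in O2 and 1 was lower. In Erysimum Y 30 of 50 were higher in Y2 and 1 was lower, in P 19 of 45 were higher in PI2 and 7 lower, and in B 1 of 52 was apart. In Lobularia W 39 of 42 were higher in W2 and 1 was lower, and in Eruca Y 9 of 27 were higher in Y1 and 1 was lower. In Matthiola W 2 of 28 were higher in Wb and 4 were lower. Both directions together came to 58.0% of the listed genes in O against 12.7% of all loci, to 62.0% in Y against 9.15%, to 57.8% in P against 48.2%, to 1.92% in B against 4.49% and to 95.2% in Lobularia W against 47.9%. In Eruca Y (37.0% against 46.3%) and Matthiola W (21.4% against 29.3%) the share of both directions together lay below that of all loci. By direction, 14.1% of all loci were higher in Eruca Y1 and 32.2% in Y2, beside 9 and 1 of the 27 listed genes. In Erysimum P 22.7% of all loci were higher in PI2 and 25.5% lower, beside 19 and 7 of 45. In Matthiola W 21.8% of all loci were higher in Wb and 7.54% lower, beside 2 and 4 of 28.

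Most small heat shock proteins outside the 10 lay apart in the same libraries. In Erysimum O 10 of 11 were higher in O2, and in Y 9 of 11 were higher in Y2. HSP23.6, a mitochondrial small heat shock protein, had 0 and 526 FPKM in O1 and O2, 0 and 525 in Y1 and Y2 and 0 and 362 in Lobularia W1 and W2. HSP17.6B, of class I, had 1.73 and 75.5 FPKM in O1 and O2 and 0 and 2259 in Lobularia W1 and W2. HSP15.4 ran the other way in Erysimum, with 56.7 and 10.1 FPKM in O1 and O2, 13.9 and 0 in Y1 and Y2 and 26.8 and 0 in PI1 and PI2.

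Among chaperones of the endoplasmic reticulum, the HSP90 of that compartment, HSP90.7, had 22.2 and 2560 FPKM in O1 and O2, 135 and 5587 in Y1 and Y2 and 36.2 and 411 in PI1 and PI2. BIP2, the HSP70 of the endoplasmic reticulum, had 62.9 and 1987 FPKM in O1 and O2, 317 and 3387 in Y1 and Y2 and, in Eruca, 612 and 49.3 in Y1 and Y2. The constitutive cytosolic HSC70-1 was less than 4-fold apart in O and Y, at 1336 and 3820 FPKM in O1 and O2 and 1474 and 3010 in Y1 and Y2. The mitochondrial MTHSC70-1 was lower in O2 and Y2, at 86.1 and 31.4 FPKM in O1 and O2 and 65.2 and 22.8 in Y1 and Y2. Near-identical HSP70 and HSP90 copies can share reads under mapping to a common reference, so the split among HSC70-1, HSC70-2, HSC70-3, BIP1, BIP2 and HSP90.2 to HSP90.4 is uncertain.

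Of the other heat-induced genes, 9 of 11 were higher in O2 and 8 of 10 in Y2. The cytosolic ascorbate peroxidase APX2 had 7.95 and 12256 FPKM in O1 and O2, 5.12 and 1100 in Y1 and Y2 and 0 and 45.2 in Lobularia W1 and W2, but 77.5 and 84.0 in PI1 and PI2. HSA32, which sustains acquired thermotolerance in Arabidopsis, had 8.54 and 1739 FPKM in O1 and O2, 11.7 and 539 in Y1 and Y2, 40.8 and 1109 in PI1 and PI2 and 9.74 and 479 in Lobularia W1 and W2. The transcriptional coactivator MBF1C had 4.62 and 697 FPKM in O1 and O2, 2.65 and 493 in Y1 and Y2 and 25.03 and 267 in PI1 and PI2. GOLS1, which makes galactinol, was listed at 0 in both libraries of O and of Y and had 0 and 352 FPKM in Lobularia W1 and W2.

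Of the other heat shock factors, 2 of 9 were apart in Erysimum O, 1 of 10 in Y, 3 of 6 in P and 0 of 12 in B, against 12.7%, 9.15%, 48.2% and 4.49% of all loci. The 2 in O were higher in O2: HSFA7B with 0 and 5.13 FPKM and HSFB2A with 2.09 and 18.3 in O1 and O2. The 1 in Y was HSFB2A, with 1.56 and 12.7 FPKM in Y1 and Y2. In P, HSFA1B (5.83 and 0 FPKM in PI1 and PI2) and HSFA4C (16.1 and 0) were lower in PI2 and HSFA1D (6.94 and 49.0) was higher. In Lobularia W, HSFA7A, a heat-inducible factor, had 0 and 219 FPKM in W1 and W2 and HSFB2B 0 and 19.7. In O and Y the constitutive factor HSFA1D was within 4-fold, at 6.35 and 5.93 FPKM in O1 and O2 and 8.28 and 17.2 in Y1 and Y2.

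Genes of other stresses were read beside these. Of the 9 cold, drought and general stress genes, 0 of 7 measured in Erysimum O were at least 4-fold higher in O2 and 0 of 8 measured in Y were higher in Y2, with ADH1 lower in O2 and RD29A lower in Y2. Of all loci 7.56% were higher in O2 and 4.76% in Y2. Among the stress genes COR47 had 103 and 122 FPKM in O1 and O2 and 100.8 and 32.6 in Y1 and Y2. In Erysimum P all 6 measured were apart, 3 higher in PI2 (RD22 with 5.45 and 44.6 FPKM in PI1 and PI2) and 3 lower (COR47 with 762 and 107). Of all loci 22.7% were higher in PI2 and 25.5% lower. In Lobularia W 3 of 5 were higher in W2 (ERD10 with 38.7 and 174.8 FPKM in W1 and W2), against 26.7% of all loci, and 1 was lower, against 21.1%. In Eruca Y 3 of 6 were higher in Y2, and these 3 were listed at 0 in Y1. That direction, opposite to the heat shock genes there, held for 32.2% of all loci, while 14.1% were higher in Y1. All 4 pollen markers, all 6 petal identity genes and all 10 genes used in every cell were within 4-fold in Erysimum O and Y, where 12.7% and 9.15% of all loci were apart. In Erysimum P the petal identity genes PI (1465 and 12784 FPKM in PI1 and PI2), SEP1 (84.6 and 686) and SEP2 (508 and 28.6) were apart, against 48.2% of all loci. In Lobularia W only AP3 was, at 742 and 176 FPKM in W1 and W2, against 47.9%. That W2 value was the lowest AP3 value of the 43 libraries. In Erysimum P 4 of 4 pollen markers were at least 4-fold higher in PI2, with VGD1 at 20.5 and 176 FPKM in PI1 and PI2. So were 5 of 10 genes used in every cell, with 2 lower, and 22.7% of all loci. The part of pollen RNA in PI2 was not tested.

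**Figure D5:**
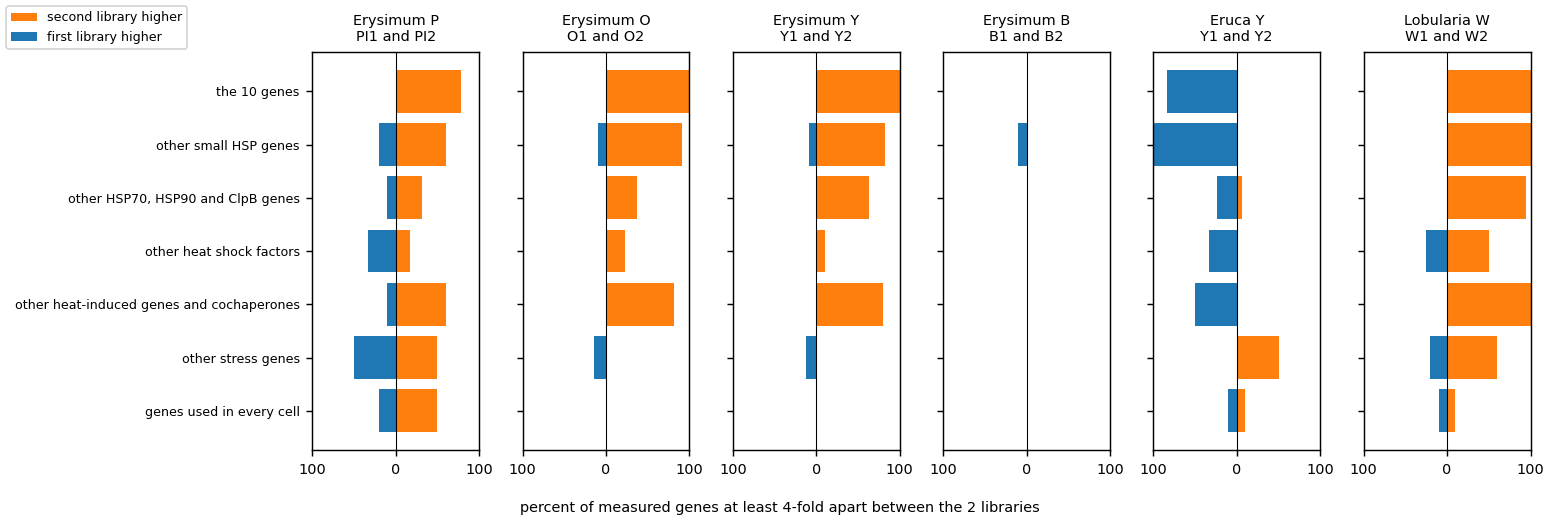
For 6 forms, bars give the percent of each list's measured genes that lay at least 4-fold apart between the 2 libraries, to the right where the second library was higher and to the left where the first was. In Erysimum O and Y the heat-related lists extend to the right, up to 10 of 10 for the 10 genes, while genes used in every cell are at 0 of 10, and in Erysimum P and Lobularia W other stress genes and genes used in every cell have bars as well.

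Some loci outside the 10 varied between libraries in the same way. Likeness was measured as the cosine between a locus's log2 differences and the mean of the 10 genes' differences over the 21 forms, among 6529 loci whose mean reached 1 FPKM in 15 or more forms. The nearest were BIP2 (0.910), HSP70B (0.906), HSP90.7 (0.903), AT5G20720 (0.877) and AT2G36460 (0.874). HSP70B is a second heat-inducible HSP70, with 0.417 and 271 FPKM in O1 and O2 and 0 and 387 in Lobularia W1 and W2. The cosines of the 10 genes themselves, which enter the mean, ran from 0.764 for HSP17.4 to 0.973 for HSP17.6C. Without Erysimum P, over 20 forms and 5855 loci, the 5 nearest were BIP2 (0.909), AT5G20720 (0.901), AT1G12900 (0.893), HSP90.7 (0.892) and AT3G53420 (0.875). HSP70B was not among them, and only BIP2 and HSP90.7 of these stand on the related lists.

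In the other species the 10 genes were low. Aubrieta had 5.36 FPKM of HSP70, 1.66 of HSP90.1 and 1.29 of HSP101, and listed the other 7 at 0. Brassica had 3.59 and 0 FPKM of HSP70, 1.30 and 0 of HSP101 and 0 and 5.56 of HSP90.1 in Y1 and Y2, with the other 7 at 0. Malcolmia had 4.31 and 5.45 FPKM of HSP101 in P against 8.46 and 9.71 in LP, and 9.94 and 8.73 FPKM of HSP70 in P against 2.802 and 5.867 in LP. HSP90.1 was under 1 FPKM in all 4 Malcolmia libraries, and HSFA2 was above 0 only in P2, at 1.16 FPKM. The Malcolmia forms did not overlap for HSP101 or HSP70, which also held for 63.5% of all loci, and limma called 0 of 2 genes tested (4.09% of all loci), with 0 of the 2 at an unadjusted p under 0.05.

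Iberis petals held HSP70 in all 4 libraries, with 26.51 and 18.93 FPKM in PI and 37.1 and 35.4 in P, or 5 and 3 reads in PI and 4 and 5 in P. HSP90.1, higher in PI, had 7.28 and 5.77 FPKM in PI and 4.24 and 3.24 in P, or 3 and 2 reads against 1 and 1. HSP101, lower in PI, had 1.86 and 0 in PI and 3.24 and 4.96 in P, or 1 and 0 reads against 1 and 2. The forms did not overlap for these 3 of 5 genes tested, which also held for 25.1% of all loci. HSP17.6II had 11.0 and 0 FPKM in PI and 20.4 and 0 in P, and HSP18.2 was above 0 only in P1, at 20.4. Of 5 genes tested limma called 0 for PI minus P, as were 0 of 10555 loci (0%), and 0 of the 5 and 580 of all loci had an unadjusted p under 0.05.

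In Matthiola HSP70 had 35.2 and 29.8 FPKM in LP, 31.3 and 22.9 in DP, 12.2 and 8.95 in RB and 27.0 and 10.2 in W. HSP17.6II was above 0 in DP (26.2 and 7.45 FPKM) and in Wb, and HSP17.4 in LP (8.26 and 9.13), DP1 (12.5) and Wb (5.20). HSP101 had 10.2 and 4.82 FPKM in LP, 11.0 and 8.08 in DP, 2.84 and 0 in RB and 6.32 and 12.5 in W, and HSFA2 was above 0 only in LP2, at 4.01 FPKM. Of 9 genes tested 0 were called in any of the 6 contrasts, where the share of all loci was 0.229% for LP minus DP, 0.726% for LP minus RB, 0.84% for DP minus RB, 1.33% for LP minus W, 2.66% for DP minus W and 7.1% for RB minus W. The DP minus RB contrast had 3 genes at an unadjusted p under 0.05 (HSP101, HSP90.1 and HSP17.6II, all higher in DP) beside 1733 of 13088 loci, and there was 1 such gene each in RB minus W, LP minus DP and LP minus RB and 0 in DP minus W and LP minus W. For a typical locus, 1 read came to 4.36 and 2.63 FPKM in DP and to 5.67 and 6.25 in RB. HSP90.1 had 8.59 and 3.49 FPKM in DP, or 3 and 2 reads, and was listed at 0 in RB. There 3 reads of it were worth 11.1 and 12.3 FPKM, above both DP values.

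In Orychophragmus the class II gene HSP17.6II was called lower in form P, a call that did not hold under several alternatives. It was listed at 0 in P1 and P2 and had 26.8 and 88.1 FPKM in W1 and W2 (limma log2 difference -5.64 ± 0.84, SE, adjusted p = 0.0481), where 4.94% of all loci were called and 3.28% were called lower. The size of this difference is set in part by the pseudocount, since P is listed at 0. The call was lost without P1 (adjusted p = 0.175) or without P2 (0.180), and by a smaller margin with quantile scaling, no filter or no trend (0.0530 to 0.0590). The other 3 genes tested had higher values in P, with HSP90.1 at 11.9 and 12.9 FPKM in P against 0 and 2.40 in W, HSP101 at 12.2 and 9.93 against 6.77 and 1.84, and HSP70 at 8.68 and 18.9 against 3.22 and 0, and did not pass (adjusted p = 0.155 for HSP90.1). All 4 genes tested did not overlap, as did 45.6% of all loci. These other 3 rest on few reads. HSP101 had 4 and 3 reads in P against 3 and 1 in W. HSP90.1 had 3 and 3 against 0 and 1, and HSP70 had 2 and 4 against 1 and 0. For a typical locus, 1 read came to 6.47 and 7.02 FPKM in P and to 4.79 and 3.91 in W. No read step was recovered for HSP17.6II, so the number of reads behind its W values is not known and may be small too. The level that its 0s in P allow is also not known. The pollen markers LAT52-like and RALFL4 also fell in P, with 65.2 and 56.5 FPKM and 0 and 0 FPKM in P against 541 and 483 FPKM and 711 and 879 FPKM in W. All 4 pollen markers summed to 95.5 and 56.5 FPKM in P against 1964 and 1996 FPKM in W, and their part in the HSP17.6II difference was not tested. The constitutive HSC70-2 and HSC70-3 rose in P, to 305 and 289 FPKM and 200 and 192 FPKM in P against 66.8 and 54.4 FPKM and 57.1 and 46.5 FPKM in W (adjusted p = 0.0317 and 0.0441).

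In Raphanus the class I gene HSP17.6C was called higher in form DP, a call that did not hold under several alternatives. It had 15.5 and 22.0 FPKM in DP1 and DP2 and was listed at 0 in both libraries of LP and of W (limma log2 difference 4.29 ± 0.60, SE, adjusted p = 0.0260 against W and 0.0322 against LP). HSP101 had 6.96 and 8.21 FPKM in DP against 0 and 0 in LP (3.10 ± 0.58, adjusted p = 0.0488), which corresponds to 3 and 5 reads against 0 and 0. All 3 calls were lost with quantile scaling, where the adjusted p was 0.0528 and 0.0641 for HSP17.6C against W and LP and 0.223 for HSP101, and with median centring, where the log2 differences were 1.64, 1.64 and 0.45. A fit of DP and LP alone also lost both calls between them (adjusted p = 0.0556 for HSP17.6C and 0.0989 for HSP101). Against W, where HSP101 had 11.0 and 10.9 FPKM or 2 reads each, LP did not pass (adjusted p = 0.0556). These 3 calls stand beside 10.8% of all loci called for DP minus W (1 of 5 genes tested, 7.07% of all loci higher), 8% for DP minus LP (2 of 5, 4.93% higher) and 2.56% for LP minus W (0 of 5). A count of 0 allows up to 3 reads, which for HSP101 were worth 12.2 and 14.6 FPKM in LP, so on counting error alone the HSP101 difference between DP and LP was not detectable at this depth. No read step was recovered for HSP17.6C itself. For HSP17.4, another class I gene, 1 read came to 23.2 and 27.8 FPKM in LP and to 31.1 and 30.9 in W, above the HSP17.6C values of DP, so if 1 read of HSP17.6C is worth about as much, its 0s cannot show a difference at this depth. In DP1 and DP2, 1 read of HSP17.4 came to 13.2 and 9.34 FPKM, so on that scale HSP17.6C would rest on few reads there too. For a typical locus, 1 read came to 4.67 and 3.31 FPKM in DP, to 8.21 and 9.83 in LP, and to 11.0 and 10.9 in W.

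The other Raphanus values overlapped or did not pass. HSP17.4 had 13.2 and 47.0 FPKM in DP, 0 in both LP libraries and 0 and 30.9 in W1 and W2. HSP70 had 29.8 and 30.4 FPKM in DP, against 11.6 and 13.9 in LP, while W1 had 46.8 and W2 was listed at 0. The pollen markers differed between these forms: LAT52-like had 120 and 184 FPKM in DP, 4570 and 5114 in LP, and 16627 and 17575 in W. VGD1, another pollen marker, had 78.6 and 138 FPKM in DP, against 739 and 719 in LP, and against 4469 and 3872 in W. All 4 summed to 209 and 326 FPKM in DP, to 5611 and 6242 in LP, and to 21735 and 22611 in W. Pollen markers thus ran opposite to HSP17.6C, and their part in its difference was not tested. The plastid genome held 1.69% and 0.872% of FPKM in DP, 25.1% and 20.1% in LP and 69.2% and 4.08% in W. Its part was not tested either.

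Over the 19 contrasts of the 7 species there were 149 tests of the 10 genes and 4 calls, 3 higher and 1 lower, and 16 contrasts had 0. The 4 related lists had 851 tests and 11 calls, 9 higher and 2 lower, a share of 1.29% against 2.15% of the 247053 tests of all loci, so calls were no more frequent in these lists than over all loci. Besides HSC70-2 and HSC70-3 in Orychophragmus, these were HSP90.5, the plastid HSP90, lower (67.5 and 67.8 FPKM against 250.2 and 275) and the cochaperone J3 higher (168 and 167 against 55.7 and 55.2) in Malcolmia P against LP, and HSP90.7 higher in Matthiola DP (582 and 502 FPKM) and RB (569 and 413) against W (153 and 162). In Matthiola RB against W the cytosolic HSP90.3 (76.0 and 109 against 12.63 and 24.98 FPKM) and MTHSC70-2 (209 and 173 against 95.1 and 65.4) were higher and APX2 (0 and 0 against 11.9 and 13.8) lower. In Raphanus DP against W the mitochondrial HSP90.6 (8.301 and 15.66 against 0 and 0 FPKM) and the cochaperone J2 (90.9 and 71.5 against 11.9 and 11.8) were higher. The adjusted p of these 11 calls lay between 0.0179 and 0.0460.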

How the data were processed

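Petal RNA-seq values of 10 species were used as deposited: 1 FPKM value per locus and library, made by the authors with Arabidopsis as reference, per the series' design text. TopHat, DESeq, Cufflinks and Cuffdiff are named without versions in the submitters' processing notes, and the annotation is not given in the sources used here. The 10 genes, the related lists and the tests were chosen with earlier results of these data known.

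Within each of 7 species, log2(FPKM + 1) of every locus whose mean reached 1 FPKM in some form was fitted with limma 3.58.1 in R 4.3.3, with all forms together and a trend of variance on level. P-values were adjusted by Benjamini-Hochberg across the loci tested in a contrast. The added 1 shrinks fold changes between low values above 0. Where a gene is listed at 0, the difference is set in part by the added 1 and is not a minimum. HSP17.4 in Raphanus, with 0 reads in W1 and 1 read in W2, differed by -4.99 (W1 minus W2). The code was tested on simulated data. No forms were formed from values, and species were never fitted together.

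Low FPKM of 7 species fell on steps of whole reads: 30.2% to 81.9% of loci with at least 3 low values had a step (a tolerance of 0.1 reads), and 1.68% to 5.90% did after blurring the values. For a typical locus 1 read came to between 0.451 FPKM (Malcolmia) and 11.0 FPKM (Raphanus), and to 3.19 FPKM in Erysimum PI2 against at most 0.946 in the other Erysimum libraries. Values are given as reads only for genes with a step. Depth is unknown for Aubrieta, Brassica and Eruca. Read counts cover counting error only, since the reads carry no molecular identifiers.

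Named were all 10 genes in every species, any called gene of the related lists, examples from the related lists among genes at least 4-fold apart in forms where at least 3 of the 10 genes were, and the 5 nearest loci. HSC70-1, HSFA1D, MTHSC70-1, GOLS1 and COR47 were named in addition after their values were seen. Results were recomputed with 0.1 as pseudocount, no filter, quantile scaling, median centring, no trend, only the 2 compared forms, the replicate number as a block and each library left out. Leaving out Erysimum P in the comparison of libraries was added after seeing the data. A genome, and with it sequences and coordinates, was not used here. Figures were drawn with matplotlib 3.10.9.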

Additional observations from a re-analysis of the deposited data

How the results depend on the processing

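The comparison of libraries gave 44 to 69 pairs apart under the alternatives run: 57 of 106 pairs of gene and form were at least 4-fold apart, against 59 with a pseudocount of 0.1, 56 with quantile scaling, 57 with median centring, 69 at 2-fold, 44 of 84 with a minimum mean of 5 FPKM and 50 of 97 without Erysimum P. Calls in the form contrasts depended on the processing. Erysimum, Iberis and Malcolmia had 0 calls of the 10 genes in every alternative run. Lobularia had 0, but 8 without W1 and 1 without W2, so leave-one-out counts ran from 0 to 8. Matthiola had 0, but 7 with median centring, and leave-one-out counts ran from 0 to 9, with 9 without Wa and 3 without LP1. The single call in Orychophragmus (HSP17.6II) went to 0 with no filter, quantile scaling or no trend and to 0 without P1 or without P2 (leave-one-out from 0 to 1), with adjusted p of 0.175 and 0.180 without P1 and without P2. The 3 calls in Raphanus (HSP17.6C and HSP101) went to 0 with quantile scaling and to 1 with only the 2 compared forms, and with median centring these 3 calls were lost as well (adjusted p from 0.145 to 0.603) while HSP101 in DP minus W and HSP90.1 in DP minus W and DP minus LP gained one, while leave-one-out counts ran from 3 to 6, with 6 without W1. The cause of these changes was not tested.

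The 11 calls among related heat response genes became 80 with median centring and 4 with no trend, and ran from 6 (without Matthiola RB1) to 38 (without Erysimum PI1) over the left-out libraries, with 34 without Lobularia W1, 25 without Raphanus LP1, 21 without Matthiola Wa, 20 without LP2, 18 without Iberis PI1 or PI2 or Raphanus DP1, 17 without Lobularia W2 or Matthiola DP2 and 7 without RB2. Median centring turned the direction, with a call, of genes that were not called before: HSP17.6C, HSP21 and HSP22 in Matthiola LP minus RB (-2.50 each) and HSP17.6C, HSP21, HSP22 and HSFA2 in DP minus RB (-2.63 each). By construction, centring gives a gene that is listed at 0 in both forms the difference of the library medians.

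With the replicate number as a block, Raphanus had 0 calls against 3, and the related genes had 16 in the 13 contrasts with numbered columns against 6 there without the block (11 is the count over all 19). The Raphanus adjusted p with the block was 0.0932 and 0.121 for HSP17.6C and 0.154 for HSP101. The numbers mark no shared batch in the labels. Deviations of same-numbered libraries correlated at 0.386 between Erysimum O and Y (0.350 without the heat-related loci), and at -0.047 to 0.078 in the other pairs of forms, so the numbers were not taken as pairs. The block changed no other count of calls among the 10 genes. Over single genes and contrasts, 39 results gained a call under an alternative, 32 in the same direction and 7 with the direction turned, and 16 lost one. The depth limits what can be seen: of 20 values above 0 in Raphanus, 14 were within 3 reads of a typical locus, as were 10 of 12 in Orychophragmus and 17 of 30 in Matthiola.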
